A study of Mus musculus with 9 samples.

Results

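Naive and circulating T cell genes are a set of 9 genes for lymphoid homing and quiescence, namely Ccr7, S1pr1, Klf2, Tcf7, Lef1, Satb1, Foxo1, Dapl1 and Igfbp4. They were taken by symbol from array features annotated with exactly 1 gene, keeping the brightest feature of a gene. Features were found for 8 of the 9 genes, and Tcf7 was not analysed here. All 8 passed the filter on dim signal, among 12792 genes tested of 22180 on the array. The cells were regulatory T cells (Tregs) of C57BL/6 mice, taken from small and large intestinal lamina propria and sorted by a Foxp3-linked red fluorescent protein. The 3 genotypes, with 3 arrays each, were Y3/CD103-/- (Y3 together with loss of the integrin CD103, whose gene is Itgae), Y3 alone, and wild type (WT). The labels do not describe Y3, which the title of the series ties to IL-2Rβ, the receptor chain that Il2rb encodes. No group lacked CD103 without Y3, so loss of CD103 could be compared only on the Y3 background. Age, sex, and whether an array held 1 animal or a pool were not given in the sources used here, so p-values here speak of the spread among these arrays, which may be technical.

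T cells that circulate between blood and lymphoid organs keep a quiescent programme that is lost, or turned down, as they become effector or tissue-resident cells. FOXO1 and KLF2 are transcription factors at the head of this programme: FOXO1 promotes transcription of Klf2, and KLF2 in turn drives S1pr1, whose receptor for sphingosine 1-phosphate lets T cells leave tissues. CCR7 leads cells toward lymph nodes, and LEF1 and SATB1 are DNA-binding proteins of naive and thymic T cells. Tregs of the gut lamina propria are mostly of an effector kind, in which these genes are lower than in lymph node Tregs.

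Promoter sequences are shown for Klf2, Satb1 and Lef1, since these regulators of the set showed contrasting patterns across the genotypes. RefSeq sequences (GRCm38.p6) were found for 6 of the 8 measured genes, and the 250 bases before the first listed start are printed 5′ to 3′ on the strand of the gene. Capitals mark the box CACCC bound by KLF proteins (GGGTG on the other strand) and, in Klf2, a match to the MEF2 motif.
Klf2, chr8:72318812-72319061, plus strand: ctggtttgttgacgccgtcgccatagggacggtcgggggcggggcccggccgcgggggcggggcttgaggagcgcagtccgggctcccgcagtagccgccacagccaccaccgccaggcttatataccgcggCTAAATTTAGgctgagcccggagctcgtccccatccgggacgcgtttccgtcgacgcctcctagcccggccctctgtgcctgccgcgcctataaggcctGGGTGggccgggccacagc
Satb1, chr17:51833291-51833540, minus strand: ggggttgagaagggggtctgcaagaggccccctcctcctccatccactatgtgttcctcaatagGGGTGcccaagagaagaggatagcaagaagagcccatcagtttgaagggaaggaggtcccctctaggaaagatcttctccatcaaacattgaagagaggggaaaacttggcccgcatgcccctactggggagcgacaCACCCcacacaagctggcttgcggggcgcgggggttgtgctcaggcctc
Lef1, chr3:131110047-131110296, plus strand: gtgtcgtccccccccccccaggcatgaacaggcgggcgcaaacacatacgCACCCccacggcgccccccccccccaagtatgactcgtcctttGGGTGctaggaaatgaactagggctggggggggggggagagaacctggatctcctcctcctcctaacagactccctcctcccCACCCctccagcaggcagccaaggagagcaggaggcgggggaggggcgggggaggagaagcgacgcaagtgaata
The MEF2 match of Klf2, CTAAATTTAG, began 118 bases before the start, and 2.92% of all 32851 such windows held a match. CACCC occurred on either strand in 52% of the windows and is therefore common. It was found 3 times in the window of Lef1, 2 times in that of Satb1 and 1 time in that of Klf2. The FOXO motif TGTTTAC, held by 3.17% of windows on either strand, and the TCF and LEF motif CTTTGAA or CTTTGAT, held by 7.48%, were in none of the 3 windows printed. The window of Dapl1, not printed, held the FOXO motif 164 bases before the start. These matches describe the letters only.

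To test the labels, the altered genes were read before the others. The log2 signal of Itgae was 6.64, 6.05 and 6.86 on the Y3/CD103-/- arrays, 9.35, 9.11 and 9.51 on the Y3 arrays and 8.06, 7.87 and 7.85 on the WT arrays. It was lowest in Y3/CD103-/-, though still above the array medians of 3.15 to 3.23, and whether its feature lies in the deleted part of the gene was not tested. Il2rb stood at 7.86 to 8.48 in Y3/CD103-/-, 7.87 to 8.50 in Y3 and 8.95 to 9.36 in WT, and its log2 differences from WT of -1.03 in Y3/CD103-/- (adjusted p = 0.0590, limma) and -1.04 in Y3 (0.0565) did not pass. The Il2rb difference passed with the intensity trend in Y3/CD103-/- (adjusted p = 0.0042) and in Y3 (0.0051), and after centring of arrays in Y3 (-1.21, 0.0374). The 6 Treg markers Foxp3, Il2ra, Ctla4, Ikzf2, Cd3e and Cd4 were all measured, with a mean level of log2 9.16 to 9.28 in Y3/CD103-/-, 9.23 to 9.26 in Y3 and 9.24 to 9.31 in WT. Il2ra, the α chain of the IL-2 receptor, was lowered in Y3/CD103-/- against WT (log2 difference -0.86, adjusted p = 0.0258). In Y3 it was also below its WT range (-0.65), without passing. Ikzf2 lay higher, at 9.38 to 9.50 in Y3/CD103-/- and 9.39 to 9.42 in Y3 against 9.04 to 9.06 in WT, also without passing. Of the 6 differences from WT, 4 were positive and 2 negative in Y3/CD103-/-, and 3 and 3 in Y3. In bulk cells such as these, fewer cells that express a gene and less RNA per cell cannot be told apart.

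With limma over all tested genes, 0 of the 8 genes passed an adjusted p of 0.05 in any of the 3 comparisons between single genotypes, against 0.790% of all genes in Y3 versus WT, 0.836% in Y3/CD103-/- versus WT and 0.00782% (Itgae alone) in Y3/CD103-/- versus Y3. At an unadjusted p under 0.05, 3 of the 8 differed in Y3 versus WT (17.0% of all genes), 5 in Y3/CD103-/- versus WT (13.3%) and 4 in Y3/CD103-/- versus Y3 (9.90%). The genes fell into patterns that the values by array show: Klf2 was low in both Y3 genotypes, Ccr7, S1pr1 and Lef1 were lowest in Y3/CD103-/-, Satb1 was high in both Y3 genotypes, Foxo1 was nearly level, and Dapl1 and Igfbp4 were highest in Y3.

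**Figure D1:**
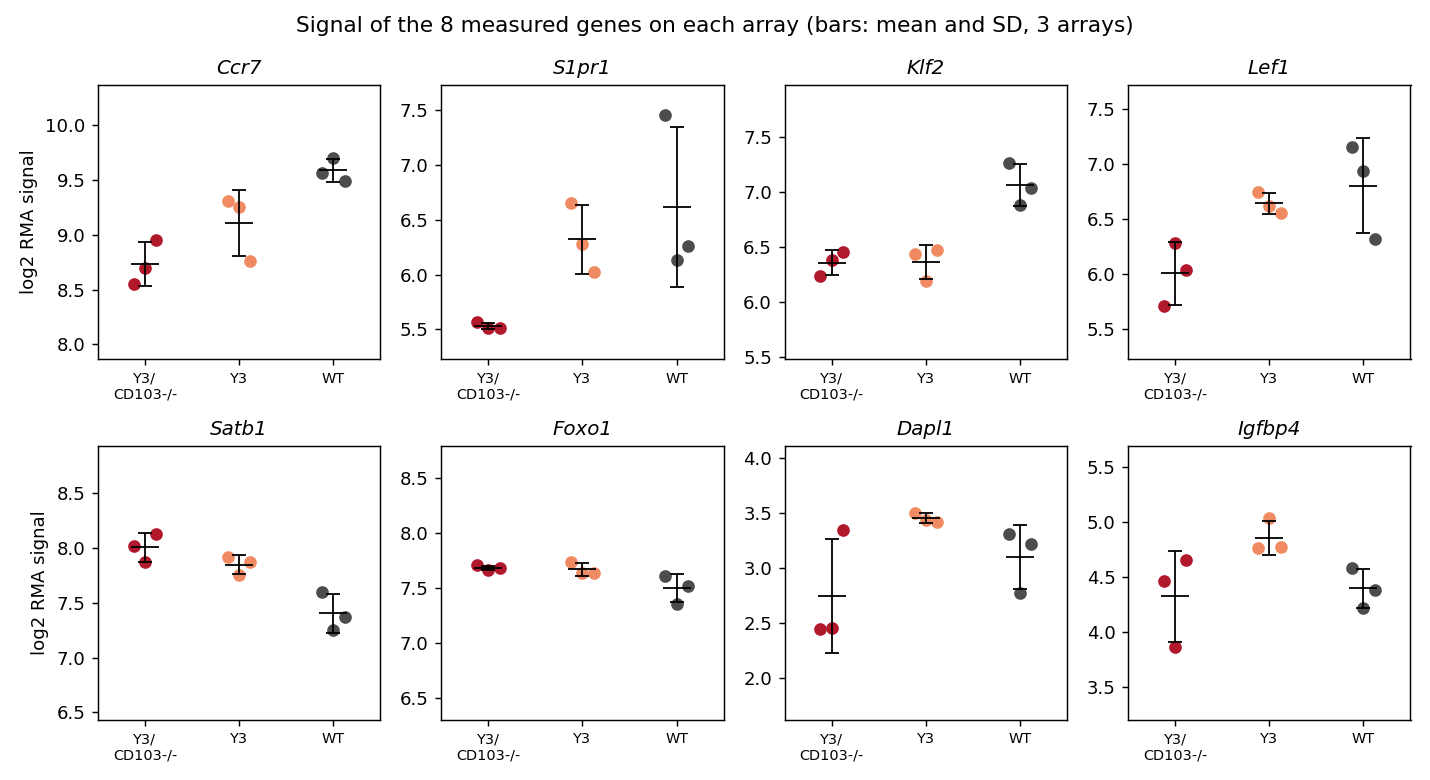
Log2 RMA signal (vertical axes, each spanning 2.5 log2 units) of the 8 measured genes on each of the 9 arrays, by genotype, with points for arrays and bars for mean and SD of 3 arrays. Klf2 lay between 6.19 and 6.47 on the 6 Y3/CD103-/- and Y3 arrays and at 6.88 or above on the 3 WT arrays, while Satb1 lay higher on all 6 than on any WT array.

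Klf2, the transcription factor of T cell quiescence and egress (feature 17502440), stood at log2 6.24, 6.38 and 6.46 in Y3/CD103-/-, 6.44, 6.19 and 6.47 in Y3 and 7.27, 6.88 and 7.04 in WT. All arrays of both Y3 genotypes lay below all WT arrays, and those of the Y3 genotypes overlapped each other. Klf2 averaged 6.36 ± 0.11 in Y3/CD103-/-, 6.37 ± 0.16 in Y3 and 7.07 ± 0.19 in WT (SD, n = 3 each). The log2 difference from WT was -0.71 ± 0.16 (SE) in Y3/CD103-/- (1.63-fold lower, adjusted p = 0.0799) and -0.70 ± 0.16 in Y3 (1.62-fold lower, adjusted p = 0.0832), neither past the threshold. Y3/CD103-/- minus Y3 was -0.0079 (95% interval -0.37 to 0.35, adjusted p = 0.993). For Y3 versus WT, Klf2 passed after quantile normalization (-0.85, adjusted p = 0.0358), after centring of arrays (-0.87, 0.0316), with an intensity trend in the variance (0.0197) and with array weights (0.0474), and in none of 9 refits that each lacked 1 array. For Y3/CD103-/- versus WT it passed with the intensity trend (0.0165). A contrast of both Y3 genotypes together with WT, added after the data were seen, called 1 of the 8 genes, against 1.77% of all tested genes. That gene was Klf2, at -0.70 ± 0.14 (adjusted p = 0.0351), and the call was lost without any 1 of the 9 arrays (adjusted p from 0.0563 to 0.0980), without the filter on dim features (0.0743) and with Y3 arrays 1 and 3 averaged (0.0786).

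Foxo1, which acts upstream of Klf2 and is held in the cytoplasm by AKT signalling (feature 17397497), stood at 7.71, 7.67 and 7.68 in Y3/CD103-/-, 7.74, 7.63 and 7.64 in Y3 and 7.61, 7.36 and 7.52 in WT. The Y3 and Y3/CD103-/- arrays all lay above the WT arrays, but by little, and the median of all tested genes lay 0.15 log2 higher in Y3 than in WT. Its difference from WT was 0.19 ± 0.14 log2 in Y3/CD103-/- (95% interval -0.12 to 0.50, adjusted p = 0.612) and 0.18 ± 0.14 in Y3 (-0.14 to 0.49, adjusted p = 0.547). A second feature of Foxo1 differed from WT by 0.19 in Y3/CD103-/- and 0.09 in Y3 (adjusted p = 0.624 and 0.786 over all features). Transcript levels do not measure where the FOXO1 protein is.

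Ccr7, the receptor for the chemokines that guide cells to lymph nodes (feature 17268972), stood at 8.55, 8.70 and 8.95 in Y3/CD103-/-, 9.31, 9.25 and 8.76 in Y3 and 9.57, 9.70 and 9.49 in WT. No array of either Y3 genotype reached the WT range, and the Y3 and Y3/CD103-/- ranges overlapped through Y3 array 3. The means of Ccr7 were 8.73 ± 0.20 in Y3/CD103-/-, 9.11 ± 0.30 in Y3 and 9.59 ± 0.11 in WT (SD). Y3/CD103-/- minus WT was -0.85 ± 0.19 log2 (1.81-fold lower, adjusted p = 0.0669), Y3 minus WT -0.48 ± 0.19 (adjusted p = 0.232) and Y3/CD103-/- minus Y3 -0.37 ± 0.19 (95% interval -0.78 to 0.04, adjusted p = 0.535). The first of these passed after quantile normalization (-0.89, adjusted p = 0.0468) and with the intensity trend (0.0032), and in none of the other alternatives.

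S1pr1, the egress receptor and a target of KLF2 (feature 17409621), stood at 5.57, 5.51 and 5.51 in Y3/CD103-/-, 6.65, 6.28 and 6.03 in Y3 and 7.46, 6.13 and 6.26 in WT. The Y3/CD103-/- arrays were tightly grouped below all others, whereas the WT arrays were spread, with WT array 1 far above the other WT arrays. S1pr1 averaged 5.53 ± 0.029 in Y3/CD103-/-, 6.32 ± 0.32 in Y3 and 6.62 ± 0.73 in WT. Y3/CD103-/- minus WT was -1.09 ± 0.31 log2 (2.12-fold lower, adjusted p = 0.149), Y3/CD103-/- minus Y3 -0.79 ± 0.31 (adjusted p = 0.455) and Y3 minus WT -0.30 ± 0.31 (95% interval -0.98 to 0.38, adjusted p = 0.644). Without WT array 1 the first became -0.67 (adjusted p = 0.181) and the last 0.12. On the Y3 arrays Klf2 lay below its WT range, while S1pr1 lay within its WT range on 2 arrays and just under it on the other.

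Lef1, a partner of β-catenin and close relative of Tcf7 (feature 17402662), stood at 5.71, 6.28 and 6.03 in Y3/CD103-/-, 6.75, 6.62 and 6.56 in Y3 and 7.16, 6.93 and 6.32 in WT. Like S1pr1 it was lower on each Y3/CD103-/- array than on any other array, with WT array 3 only just above. Mean Lef1 signal was 6.01 ± 0.29 in Y3/CD103-/-, 6.64 ± 0.098 in Y3 and 6.80 ± 0.44 in WT. Y3/CD103-/- minus WT was -0.80 ± 0.23 log2 (1.74-fold lower, adjusted p = 0.152) and Y3/CD103-/- minus Y3 -0.64 ± 0.23 (1.55-fold lower, adjusted p = 0.435). Y3 minus WT was -0.16 ± 0.23 (95% interval -0.66 to 0.34, adjusted p = 0.746), and 0.016 without WT array 1.

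Satb1, a chromatin organizer of naive and developing T cells that also acts in early Treg development (feature 17345926), ran the other way. It stood at 8.02, 7.87 and 8.13 in Y3/CD103-/-, 7.91, 7.75 and 7.88 in Y3 and 7.59, 7.25 and 7.37 in WT. Every Y3/CD103-/- and Y3 array lay above every WT array, with overlap between the Y3 genotypes. Satb1 averaged 8.01 ± 0.13 in Y3/CD103-/-, 7.85 ± 0.084 in Y3 and 7.40 ± 0.18 in WT. The difference from WT was 0.60 ± 0.16 log2 in Y3/CD103-/- (1.52-fold higher, adjusted p = 0.110) and 0.44 ± 0.16 in Y3 (1.36-fold higher, adjusted p = 0.198). The first passed with the intensity trend (adjusted p = 0.0144) and in no other alternative. The second ran from 0.28 to 0.54 over the 18 alternatives. The median of all tested genes lay 0.15 log2 higher in Y3 than in WT.

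Dapl1, a death-associated protein-like gene found in naive and memory T cells (feature 17371011), was dim, above the array median on 6 of the 9 arrays. It stood at 2.44, 2.45 and 3.35 in Y3/CD103-/-, 3.50, 3.43 and 3.42 in Y3 and 3.31, 2.77 and 3.22 in WT. The Y3 arrays lay highest, and Y3/CD103-/- array 3 stood apart from the other arrays of its group. Y3/CD103-/- minus Y3 was -0.71 ± 0.25 log2 (adjusted p = 0.421), and the differences from WT were -0.35 ± 0.25 in Y3/CD103-/- (adjusted p = 0.589) and 0.36 ± 0.25 in Y3 (adjusted p = 0.486). Over the 18 alternatives, Dapl1 in Y3 minus WT ran from 0.19 to 0.46.

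Igfbp4, a secreted protein that binds insulin-like growth factors and a transcript of naive T cells (feature 17256264), stood at 4.46, 3.86 and 4.65 in Y3/CD103-/-, 4.76, 5.03 and 4.78 in Y3 and 4.58, 4.22 and 4.38 in WT. The Y3 arrays lay above all others, and the Y3/CD103-/- and WT ranges overlapped. Y3/CD103-/- minus Y3 was -0.54 ± 0.21 log2 (adjusted p = 0.459), Y3 minus WT 0.46 ± 0.21 (adjusted p = 0.299) and Y3/CD103-/- minus WT -0.07 ± 0.21 (95% interval -0.54 to 0.40, adjusted p = 0.920). Y3 minus WT ran from 0.30 to 0.56 over the 18 alternatives, beside a median of 0.15 over all tested genes in the main fit. In the gene table of GRCm38.p6, Igfbp4 and Ccr7 lie on the same chromosome as Itgae and have 1 gene, Tns4, between them. Igfbp4 and Ccr7 differed in pattern, since Ccr7 was highest in WT and Igfbp4 in Y3, though neither passed between single genotypes. Whether their position relative to Itgae plays a part was not tested.

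Read by comparison, the counts of genes whose groups did not overlap were as follows. In Y3/CD103-/- versus WT, Ccr7, S1pr1, Klf2 and Lef1 (4 of 8) lay lower without overlap, as did 6.68% of all tested genes, and Satb1 and Foxo1 (2 of 8) lay higher, as did 10.7%. In Y3 versus WT, Ccr7 and Klf2 (2 of 8) lay lower without overlap, as did 4.93% of all genes, and Satb1, Foxo1, Dapl1 and Igfbp4 (4 of 8) lay higher, as did 19.0%. These comparisons share the WT arrays. In Y3/CD103-/- versus Y3, S1pr1, Lef1, Dapl1 and Igfbp4 (4 of 8) lay lower without overlap, as did 14.4% of all genes. The median difference of the 8 genes was -0.53 log2 in Y3/CD103-/- versus WT (0.04 over all tested genes), 0.0069 in Y3 versus WT (0.15 over all) and -0.45 in Y3/CD103-/- versus Y3 (-0.10 over all). Of the 8 differences, 6 were negative in Y3/CD103-/- versus WT, 4 in Y3 versus WT and 6 in Y3/CD103-/- versus Y3. Of all 12792 tested genes, 5742, 3779 and 8465 were negative in the same order, so most genes were negative in the last comparison.

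**Figure D2:**
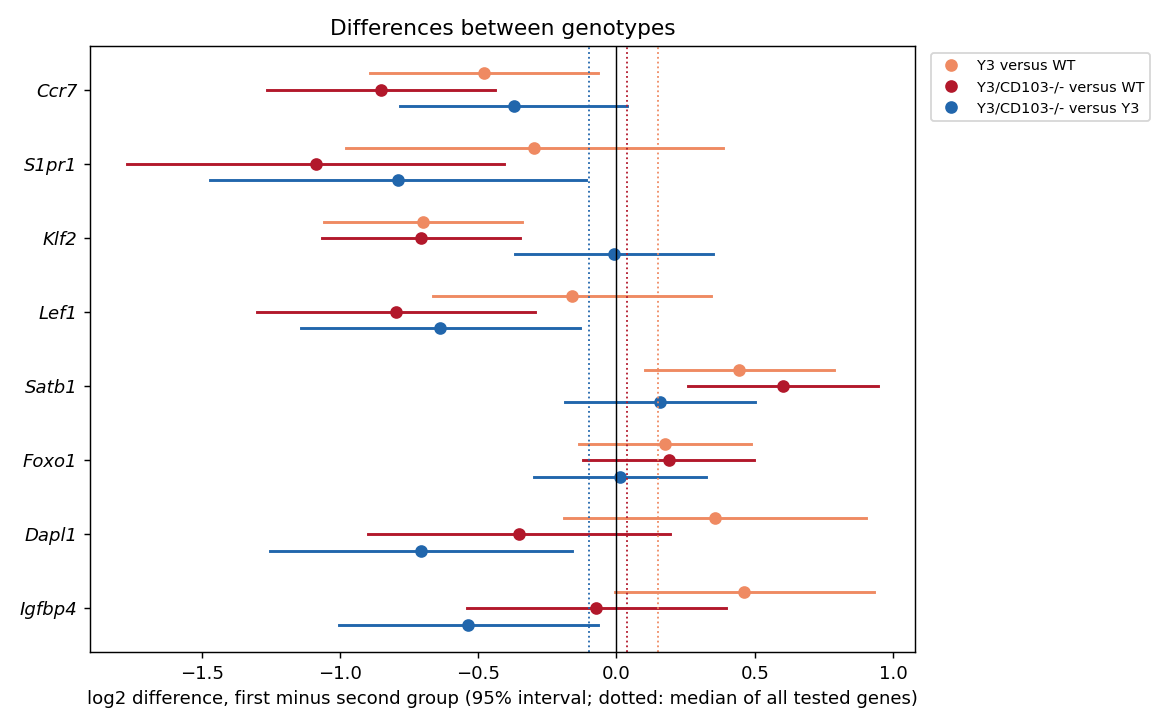
Log2 differences between genotypes (horizontal axis, first minus second group) for the 8 genes, with points for the limma estimates, bars for 95% intervals and dotted lines for the median of all tested genes in each comparison. Klf2 was -0.71 and -0.70 against WT and near 0 between the Y3 genotypes, whereas S1pr1 and Lef1 were at -0.79 and -0.64 in Y3/CD103-/- against Y3.

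The wider programme was read from a list of 24 other naive, central memory and circulating T cell genes, of which 21 were tested. Only Il7r passed, and 0 rose, in each comparison with WT. Of all tested genes, 0.836% passed in Y3/CD103-/- versus WT and 0.790% in Y3 versus WT. Il7r, which encodes the IL-7 receptor chain CD127 and is a target of FOXO1, stood at 7.53, 7.92 and 7.76 in Y3/CD103-/-, 7.17, 7.92 and 7.37 in Y3 and 8.88, 8.82 and 9.0 in WT. Its level was well under the WT range on all 6 arrays of the Y3 genotypes. It fell by 1.16 log2 in Y3/CD103-/- against WT (2.24-fold lower, adjusted p = 0.0271) and by 1.42 in Y3 against WT (2.67-fold lower, adjusted p = 0.0124), and Y3/CD103-/- minus Y3 was 0.25 ± 0.20 (adjusted p = 0.700). The call in Y3 versus WT did not pass without Y3 array 1 or Y3 array 3 (adjusted p up to 0.0984) or with these 2 arrays averaged, and that in Y3/CD103-/- versus WT held in 2 of 9 when each array was dropped in turn (adjusted p from 0.0198 to 0.0989). The Y3/CD103-/- call was also lost without the filter on dim features (0.0548), with array weights (0.0540) and with only the 6 arrays compared (0.0630).

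Before adjustment, with p under 0.05, 5 of the 21 genes were lower in Y3/CD103-/- than in WT (5.35% of all tested genes) and 0 were higher (7.90% of all). In Y3 versus WT, 5 were lower (3.60% of all) and 2 higher (13.4% of all). In Y3/CD103-/- versus Y3, 6 were lower (8.12% of all) and 0 higher (1.78% of all), and 0 passed the adjusted threshold. The median difference of the list was -0.30 in Y3/CD103-/- versus WT, 0.15 in Y3 versus WT and -0.32 in Y3/CD103-/- versus Y3.

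Genes of tissue retention and effector Tregs were set beside these. Of 19 tested of 20, 0 rose and Klrg1 and Itgae fell in Y3/CD103-/- versus WT, where 0.836% of all tested genes passed. In Y3 versus WT, Itgae, Runx3 and Xcl1 rose and Klrg1, an inhibitory receptor of differentiated Tregs, fell (0.790% of all tested genes passed). Itgae alone fell in Y3/CD103-/- versus Y3, where it is the deleted gene. The median difference was -0.09 in Y3/CD103-/- versus WT, 0.08 in Y3 versus WT and 0.02 in Y3/CD103-/- versus Y3. Klrg1 differed from WT by a log2 value of -2.10 in Y3/CD103-/- (adjusted p = 0.0122), and by -2.05 in Y3 (0.0124), the Y3 call not past the threshold without Y3 array 1 or Y3 array 3. With only the 6 arrays compared, the Y3/CD103-/- calls of Klrg1 (0.0650) and Itgae (0.0773) were lost. With Y3 arrays 1 and 3 averaged, the Y3 calls of Klrg1 (0.0842), Xcl1 (0.0679), Itgae (0.106) and Runx3 (0.216) were lost. Xcl1, a chemokine of activated lymphocytes, rose by 1.97 log2 in Y3 (adjusted p = 0.0119, and not past the threshold without any 1 of the 3 Y3 arrays) and stood 1.26 above WT in Y3/CD103-/- (0.0669, and 0.0080 with the intensity trend). Itgae rose by 1.40 log2 in Y3 against WT (adjusted p = 0.0169), a call lost without Y3 array 1, Y3 array 3, WT array 2 or WT array 3. Its difference from WT in Y3/CD103-/- was -1.41 (adjusted p = 0.0159, and 0.0538 without WT array 1). Runx3, a transcription factor that promotes Itgae, rose by 0.83 log2 in Y3 against WT (adjusted p = 0.0455) and passed in none of 9 refits that each lacked 1 array. Its call was also lost with the replicate block (0.0992), after quantile normalization (0.0759), after centring (0.0688), without the filter (0.0913) and with only the 6 arrays compared (0.0863). In Y3/CD103-/- it stood 0.69 above WT (0.0872, and 0.0262 with the intensity trend).

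Relatives of the 8 genes, such as other FOXO, KLF, TCF, sphingosine 1-phosphate receptor and insulin-like growth factor binding protein genes, numbered 17, with 11 tested, and 0 passed in any comparison. At an unadjusted p under 0.05, 2 of the 11 differed in Y3/CD103-/- versus WT (13.3% of all tested genes). In Y3 versus WT 0 did (17.0% of all), and in Y3/CD103-/- versus Y3 1 did (9.90% of all). The smallest p in the list belonged to Igfbp3 (0.54 ± 0.20 in Y3/CD103-/- minus Y3, adjusted p = 0.441) and Igfbp7 (-0.45 ± 0.20 in Y3/CD103-/- minus WT, adjusted p = 0.367). Regulators, ligands and partners, among them AKT kinases, the MAP2K5, ERK5 and MEF2 genes that act on Klf2, and the TLE corepressors of LEF1, numbered 20 with 17 tested, and 0 passed. At an unadjusted p under 0.05, 3 of the 17 were higher in Y3 than in WT, a share near that of all tested genes (13.4%), and 0 differed in the other comparisons. Akt2, a kinase that inactivates FOXO proteins, stood 0.24 ± 0.16 above WT in Y3/CD103-/- and 0.45 ± 0.16 in Y3 (adjusted p = 0.561 and 0.208), and Tle3 by 0.30 ± 0.20 and 0.49 ± 0.20 (0.569 and 0.254).

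**Figure D3:**
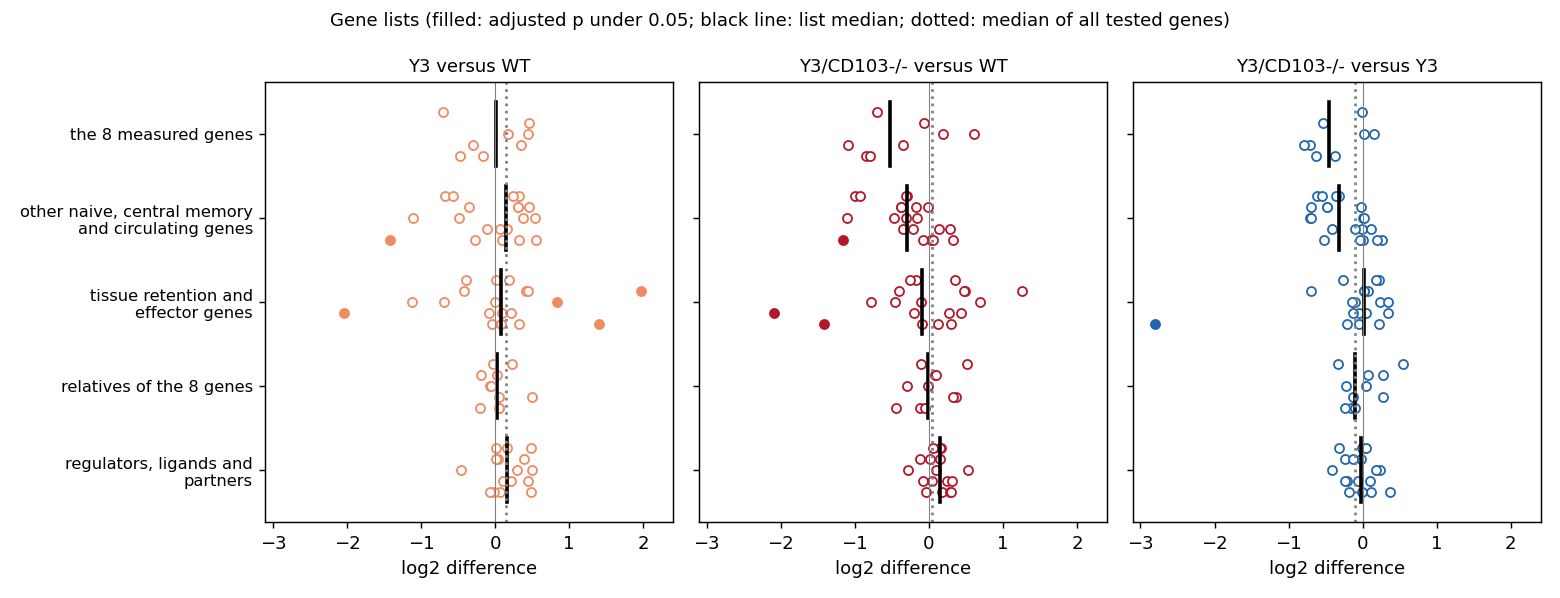
Log2 differences (horizontal axes) of each tested gene in the 8 measured genes and 4 other lists, in 1 panel for each comparison, with filled points for an adjusted p under 0.05, black lines for list medians and dotted lines for the median of all tested genes. No point of the 8 genes is filled, and Il7r is the filled point among the other naive, central memory and circulating genes in both comparisons with WT.

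The genes outside the lists with the most similar array profiles were found for the 3 genes with the widest range of group means, by the root mean square difference of the 9 values after subtraction of each gene's mean. Closest to Ccr7 were Ccl20 (0.15 log2) and Zbtb10 (0.16). Closest to Lef1 were Izumo1r (0.18) and Ppp3cc, a calcineurin subunit (0.18). Closest to S1pr1 were Gnat1 (0.252) and Zscan26 (0.255). Izumo1r averaged 7.69 in Y3/CD103-/-, 8.19 in Y3 and 8.36 in WT.

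Markers of other cells were read in the same arrays, because B cells, dendritic cells and endothelium also use several of these genes. The 7 measured of 8 B and plasma cell markers averaged 3.41 to 3.56 in Y3/CD103-/-, 3.24 to 3.41 in Y3 and 3.51 to 3.67 in WT, and Ms4a1 and Blk were not above the array medians. The 10 endothelial and stromal markers averaged 2.86 to 3.11, 2.82 to 2.96 and 3.05 to 3.34 in the same order of genotypes, and Cdh5, Kdr and Tek were among the 6 not above the array medians. The 8 measured of 10 macrophage and dendritic cell markers averaged 4.43 to 4.65 in Y3/CD103-/-, 4.04 to 4.20 in Y3 and 4.06 to 4.86 in WT. H2-Aa of this list fell in Y3 against WT (adjusted p = 0.0264). Cd68 went the other way, at 6.09 to 6.23 in Y3/CD103-/- and 5.97 to 6.29 in Y3. On the WT arrays Cd68 stood at 5.19 to 5.67. Of the 7 tested, 5 differences were negative and 2 positive in Y3 versus WT. In Y3/CD103-/- versus WT, 3 were negative and 4 positive. The 10 epithelial markers averaged 4.01 to 5.69 in Y3/CD103-/-, 4.09 to 4.56 in Y3 and 5.19 to 6.02 in WT. Of the 9 tested, 0 passed. Before adjustment, p was under 0.05 for 2 that were lower in Y3/CD103-/- than in WT (5.35% of all tested genes). It was under 0.05 for 5 that were lower in Y3 than in WT (3.60% of all). Without overlap with WT, 6 of the 9 lay lower in Y3 (4.93% of all) and 1 in Y3/CD103-/- (6.68% of all). The median difference of the 9 from WT was -1.04 log2 in Y3 and -0.46 in Y3/CD103-/-. CD8 T and NK cell markers averaged 2.94 to 3.29, 3.07 to 3.25 and 3.13 to 3.46, and innate lymphoid cell markers 4.95 to 5.06, 4.91 to 5.19 and 5.03 to 5.54. Among the latter, Il17rb was lower in both Y3 genotypes than in WT (adjusted p = 0.00450 and 0.0246). Kit went the other way, at 5.36 to 5.70 in Y3/CD103-/- and 5.03 to 5.53 in Y3. Its WT range was 4.02 to 5.06. At an unadjusted p under 0.05, 2 of the 5 tested were higher and 2 lower in Y3/CD103-/- versus WT (7.90% and 5.35% of all tested genes). In Y3 versus WT, 0 were higher and 2 lower (13.4% and 3.60% of all). The highest value of the epithelial, endothelial, B cell, macrophage and dendritic, and Treg lists lay on WT array 2. On the epithelial list Y3/CD103-/- array 1 overlapped the WT range. The part of these lists in the values of the 8 genes was not tested.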

How the data were processed

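Linearly amplified RNA was hybridised to 9 Affymetrix arrays (mouse Gene ST2.0), per the labels' protocols. The authors deposited log2 signal made with RMA, per the submitters' processing notes, with version, settings and build not given in the sources used here. That the scale is log2 was taken from the range of the values (0.115 to 14.05, array medians 3.15 to 3.23). Of 39137 features, 23521 were annotated with exactly 1 gene, and the brightest per gene was kept. A gene was tested if it exceeded its own array's median on at least 3 of the 9 arrays. All arrays entered 1 limma 3.58.1 model (lmFit and eBayes, R 4.3.3) of 3 group means with 10.8 degrees of freedom, tested 2-sided, with Benjamini-Hochberg adjustment over all tested genes of a comparison and calls at an adjusted p under 0.05. Errors are standard errors from limma. The model was tested on simulated data. The genes, lists and comparisons were chosen with earlier results of these data known. Named were the 8 genes, list genes that passed (otherwise the 2 of smallest p), the most similar genes, Itgae and Il2rb. The replicate numbers were treated as not pairing the arrays. Correlations of deviations between same-numbered arrays ran from -0.044 to 0.107. The highest, for replicate 1 in Y3 versus WT, lay just above the threshold of 0.1, and a fit with the replicate block is given below.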

Additional observations from a re-analysis of the deposited data

How the results depend on the processing

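The fit was repeated under 18 alternatives, 17 planned and 1, with the mean of Y3 arrays 1 and 3 (which resembled each other most) as 1 sample, chosen after seeing the data. The number of the 8 genes called in Y3 versus WT became 1 (Klf2) after quantile normalization, centring of arrays, an intensity trend and array weights, and in Y3/CD103-/- versus WT 1 (Ccr7) after quantile normalization and 3 (Ccr7, Klf2, Satb1) with the trend. It stayed 0 in the other alternatives, which include each array left out in turn, and in all alternatives of Y3/CD103-/- versus Y3. For both Y3 genotypes together versus WT, a contrast also added after seeing the data, the count of 1 (Klf2) became 2 after quantile normalization, 3 with the trend, and 0 without the filter, with the replicate block, with the averaged Y3 arrays and in each fit without 1 array. With the replicate block, 0 of the 8 genes were called in each comparison between single genotypes, and 55 genes of all tested were called in Y3/CD103-/- versus WT and 54 in Y3 versus WT.

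Of all tested genes, 107 were called in Y3/CD103-/- versus WT and 101 in Y3 versus WT. In the same order, the counts were 62 and 12 with Y3 arrays 1 and 3 averaged, 60 and 346 with array weights, 303 and 332 with the trend, 54 and 52 without the filter and 17 and 63 with only the 6 arrays compared. With an array left out they ran from 28 to 70 in Y3/CD103-/- versus WT, fewer without each of the 9 arrays, and from 8 to 119 in Y3 versus WT, with 12 without Y3 array 1, 41 without Y3 array 2, 8 without Y3 array 3, 45 without WT array 2 and 64 without WT array 3. In Y3/CD103-/- versus Y3 the count of 1 became 4 with the trend, 9 with array weights and 3 with the mean of a gene's features, and ran from 1 to 2 with an array left out.

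Some differences changed sign. With an array left out, Klf2 in Y3/CD103-/- versus Y3 ran from -0.098 to 0.052, Foxo1 from -0.0053 to 0.048, Klrg1 from -0.39 to 0.32 and Il2rb from -0.15 to 0.18. In Y3 versus WT, S1pr1 ran from -0.54 to 0.12, Lef1 from -0.40 to 0.016 and Igfbp3 from -0.17 to 0.19, each highest without WT array 1. Igfbp4 in Y3/CD103-/- versus WT ran from -0.24 to 0.16, the 0.16 without Y3/CD103-/- array 2. In Y3/CD103-/- versus Y3, Klf2 became 0.11 after quantile normalization, 0.14 after centring and 0.037 with the averaged Y3 arrays, Klrg1 became 0.071 and 0.099 after quantile normalization and centring, Runx3 0.0019 after centring, and with array weights Foxo1 became -0.014 and Il2rb -0.099. Igfbp3 in Y3 versus WT became 0.025 after quantile normalization and 0.025 with the averaged Y3 arrays. In both Y3 genotypes together versus WT, Dapl1 (0.0014) became -0.0045 after quantile normalization, -0.090 after centring and -0.0010 with the averaged Y3 arrays, and ran from -0.16 to 0.11 with an array left out. The causes were not tested.

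Signal close to the array median limits Dapl1. With 3 arrays a group, precision is set by their number, and no source used here gives array batches. RMA had been applied before deposit, so background correction was not varied.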
